A study of Mus musculus with 8 samples.

Results

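The comparison described here sets mouse embryonic stem cells in which deletion of the Mll1 gene (Kmt2a) was induced against the same line left untreated. It covers the named loci of the deposited expression tables that had the status OK in both groups and at least 100 estimated counts in either, 15794 of the 61535 loci in all and of 50060 loci with a gene name. Of the named loci, 161 lacked the status OK in one or both groups and 34105 with that status were under the count minimum. The closest values to that minimum were Gpm6b, kept with 100.2 counts in its higher group, and Gm6741, left out with 99.97. Of the loci kept, 1425 join several gene names, so the genes within them cannot be separated. The use of strand in counting is not stated in the labels or files used here.

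RNA was sequenced from 8 libraries in 4 groups of 2. All groups were blastocyst-derived C57BL/6J stem cells of the genotype Mll1fl/fl; Cre-ER TM, cultured with LIF on mouse embryonic fibroblast feeder cells. The untreated group received no agent, and the group labelled as Mll1 deletion received 4-hydroxytamoxifen (4-OHT), which activates the Cre-ER recombinase, at 5 µM for 5 days in serum medium. The other groups were given the MLL1 inhibitor MM401 at 100 µM, or 2i, which is the MEK inhibitor PD at 1 µM with the GSK3 inhibitor CHIR99021 at 3 µM, in serum replacement medium. The untreated group carries the floxed alleles and the recombinase too, and its own choice between serum and serum replacement is not stated. The promoter that drives Cre-ER, the number of clones and the genotype of the feeders are not stated in the labels used here. With no vehicle group and no Cre group without floxed alleles among the libraries, the effects of 4-OHT, Cre activity, a medium that may have differed and loss of Mll1 cannot be told apart.

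MLL1 is a methyltransferase that places methyl groups on lysine 4 of histone H3, a mark of active promoters and enhancers, as part of a complex with WDR5, RBBP5, ASH2L and DPY30. It is best known for maintaining HOX gene expression in blood cells and in leukaemia. Mouse embryonic stem cells in serum are a mixture of naive cells, cells that resemble the post-implantation epiblast and cells that lean toward primitive endoderm, the lineage that lines the yolk sac.

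Each deposited column already combines both libraries of a group, so no spread between libraries, test or p-value can be given. Values are FPKM, mapped fragments per kilobase of a transcript after scaling to the library size, with the authors' interval in square brackets. The confidence level of these intervals, and whether they include spread between libraries, is not stated in the files used here. The distance from the FPKM to its limit had a median of 31.2% of the FPKM in the untreated group, and its 5th and 95th percentiles were 18.9% and 137%. Ratios are log2 of (FPKM + 1) in Mll1-deleted over untreated cells, which understates the change of low loci. A locus is said to have risen or fallen when its ratio was 2-fold or more and the intervals of the groups did not overlap. The gene lists below were chosen with earlier results of these data known, so their counts and medians are descriptions only. Total estimated counts were 84503307 in the untreated and 88203834 in the Mll1-deleted group.

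Expression of 118 loci rose (0.747% of those kept) and that of 173 fell (1.10%), 291 in either direction (1.84%). These counts and their balance moved with the settings, to 303 rises and 299 falls with FPKM + 0.1, 25 and 57 with FPKM + 5, and 490 and 429 at 1.5-fold. Without the interval rule, 177 loci (1.12%) were at least 2-fold higher and 236 (1.49%) at least 2-fold lower, 2.61% in either direction. Over all 15794 loci the median ratio was 0.05, and the 5th and 95th percentiles were -0.60 and 0.67. Loci that fell started at a median FPKM of 10.9 and ended at 2.80, whereas loci that rose went from 3.13 to 9.92. Changes of 4-fold or more were found at 22 loci that fell and 8 that rose. Among single-name loci that matched the RefSeq gene table, 144 of 150 that fell and 93 of 97 that rose were protein-coding. Of the 291 calls, 265 were also 2-fold in the same direction in the estimated counts.

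**Figure D1:**
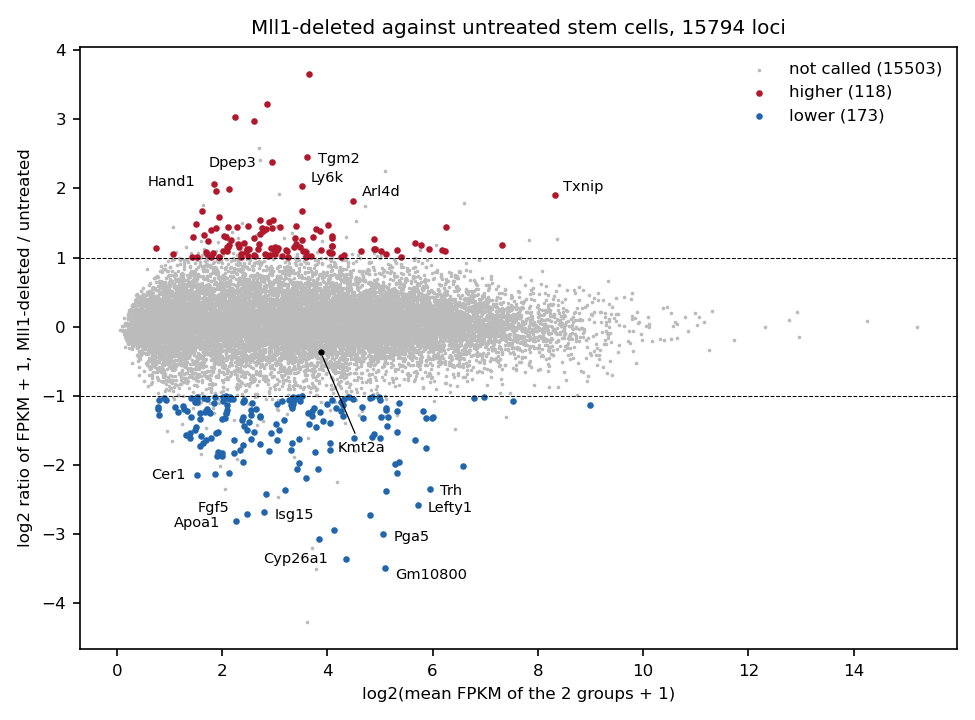
Each point is 1 of the 15794 loci, with the log2 of the mean FPKM of both groups plus 1 on the x axis and the log2 ratio of FPKM + 1, Mll1-deleted over untreated, on the y axis. The 118 red points rose and the 173 blue points fell by the 2-fold and interval rule (dashed lines at 1 and -1), and Kmt2a lies inside the grey band at -0.37.

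Kmt2a itself (chr9:44803333-44884397, mm10) was at 15.5 FPKM [11.4 to 19.7] in untreated and 11.8 [8.71 to 14.9] in Mll1-deleted cells, a log2 ratio of -0.37, and its intervals overlap. The value covers the whole gene. The labels used here do not say which exons the floxed alleles lose, so this value does not check the deletion. None of the 21 measured loci of MLL and SET1 complex subunits passed the call rule (median 0.05). The paralogue Kmt2b, in a locus joined with Zbtb32, was at 44.4 FPKM [27.7 to 61.2] and 66.3 [42.9 to 89.7], the highest ratio of the list at 0.57. Setd1b, a SET1-type methyltransferase, was at 8.60 [5.31 to 11.9] and 5.28 [3.09 to 7.47], the lowest at -0.61. The most highly expressed subunits, Ash2l (181 and 162 FPKM) and Dpy30 (169 and 138 FPKM), were not called. The same was true of all 29 Polycomb subunit loci (median 0.04), led by Eed at 280.2 and 277 FPKM, and of all 25 loci of histone demethylases and deacetylases (median 0.15).

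The HOX clusters, the textbook targets of MLL1, held 27 measured loci, and none was called. Their median ratio was -0.34, or -0.58 in the estimated counts, and 19 of 27 lay below 0. Levels were low: the highest single-name loci were Hoxd8, at 2.70 FPKM in untreated and 1.97 in Mll1-deleted cells, and Hoxc13, at 2.24 and 4.26. The locus that joins Hoxb9 with a microRNA was listed at 113 and 62.0 FPKM with intervals that reach 0. Among 18 measured loci of other genes known as MLL1 targets in blood and leukaemia, 1 fell and none rose. The long noncoding RNA Halr1, which lies beside the HoxA cluster and was named after its values were seen, fell from 45.1 [31.7 to 58.4] to 17.7 [10.9 to 24.4] FPKM.

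Expression of core and naive pluripotency factors did not pass the call rule at any of 28 loci (median 0.11). Dppa5a, in a joined locus, was at 7220.0 and 8382 FPKM, and Pou5f1, which encodes OCT4, was at 874 [689 to 1059] and 1008 [793 to 1223]. Nanog had 265 [223 to 307] and 380.4 [319.7 to 441] FPKM, separate intervals at a ratio of 0.52, under the 2-fold limit. The 17 loci of the LIF and STAT3 pathway gave no call either (median 0.13). Its target kinase genes Pim1 (71.0 and 127 FPKM, 0.82) and Pim3 (66.5 and 115 FPKM, 0.79) had separate intervals and were under 2-fold.

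In NODAL signalling, the antagonist genes Lefty1, Lefty2 and Cer1 fell. NODAL is a secreted ligand of the TGF-beta family that acts through activin receptors and the co-receptor CRIPTO (Tdgf1), and its antagonists LEFTY1, LEFTY2 and CER1 are themselves induced by the pathway. Lefty1 (chr1:180920840-180975112) was at 89.0 FPKM [68.7 to 109] in untreated and 14.0 [9.87 to 18.1] in Mll1-deleted cells. Its ratio was -2.59, and the intervals allow values from -3.34 to -1.87. Lefty2 (chr1:180893108-180899103), its neighbour family member, was at 57.1 [44.7 to 69.5] and 10.2 [7.17 to 13.2] FPKM (ratio -2.38). Both genes thus fell with a wide gap between the groups. Cer1 went from 3.69 [2.79 to 4.59] to 0.0651 [0.00564 to 0.124] FPKM (-2.14).

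The ligand and co-receptor genes were not called. Nodal was at 42.0 [34.2 to 49.8] and 50.1 [40.9 to 59.4] FPKM, with overlapping intervals. Tdgf1 was at 337 [279 to 395] and 489.7 [410.0 to 569]. The inhibitory SMAD gene Smad7, which also restrains the pathway, was at 96.2 and 118 and was not called either. In all, 4 of 19 loci of the pathway fell and none rose (1.10% and 0.747% over all loci), at a median of 0.02. The list medians of NODAL genes and of all loci are thus close.

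Among 21 loci of BMP signalling and ID genes, 3 fell and none rose (median 0.06), beside 1.10% and 0.747% over all loci. BMPs are a related family of ligands that hold stem cells back from neural fate. The antagonist gene Nog (noggin) was at 4.91 [3.83 to 5.98] and 0.681 [0.427 to 0.935] FPKM (-1.81). Another antagonist gene, Grem1 (gremlin), was at 11.5 [9.34 to 13.7] and 3.02 [2.40 to 3.64] FPKM (-1.64). The ligand gene Bmp2 was at 2.80 [2.21 to 3.39] and 0.529 [0.368 to 0.691] FPKM (-1.31). Another ligand, Bmp4, was at 6.60 and 7.89 FPKM, and the BMP target Id3 was at 73.9 and 46.1, and neither was called. Among the 25 loci of the WNT list the only call was Notum, which encodes a secreted enzyme that inactivates WNT ligands. It fell from 24.4 [18.5 to 30.2] to 6.91 [5.02 to 8.81] FPKM (-1.68). That list leaves out Lef1, described below, and Dkk2, named after its values were seen, which both fell. Dkk2 was at 4.41 and 1.67 FPKM (-1.02). Axin2, a general WNT target, was at 4.38 and 7.54 with overlapping intervals. Among the 26 loci of the FGF and ERK feedback list the only call was the ligand gene Fgf15, at 4.72 and 1.26 FPKM (-1.34). That list leaves out Fgf5, which fell and is described with the epiblast genes below. Fgf4, the main FGF of stem cells, was at 133 and 177 FPKM, and the ERK feedback gene Dusp6 was at 47.4 and 47.3.

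**Figure D2:**
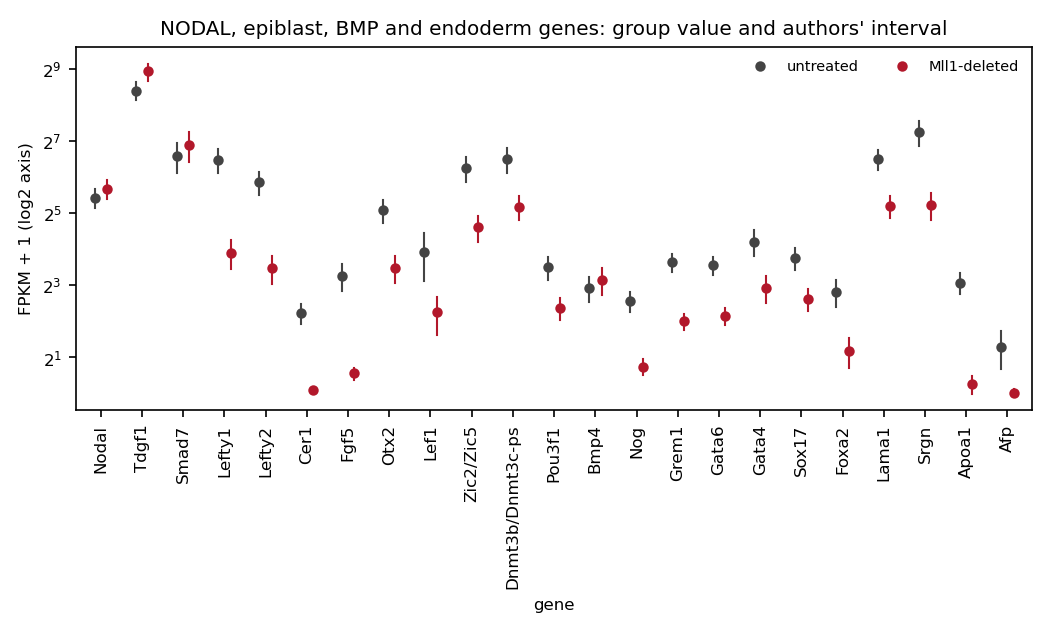
Points are the group FPKM + 1 on a log2 axis and bars the authors' interval, for untreated (grey) and Mll1-deleted cells (red), for genes of NODAL and BMP signalling, the epiblast and the endoderm. Nodal, Tdgf1, Smad7 and Bmp4 have values that are level or higher after deletion, whereas the grey bars of the other genes shown stand clear above the red ones.

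Formative and primed epiblast genes, which mark the step after the naive state, showed 8 falls and no rise among 19 loci (median -0.66). Falls made up 1.10% and rises 0.747% of all loci kept. The growth factor gene Fgf5 was at 8.66 [6.22 to 11.1] and 0.473 [0.299 to 0.648] FPKM (-2.71). Lef1, a nuclear effector of WNT, was at 14.3 [7.77 to 20.9] and 3.77 [2.097 to 5.43] FPKM (-1.69). The transcription factor gene Otx2 was at 33.2 [25.7 to 40.6] and 10.2 [7.45 to 13.0] FPKM (-1.60). The intervals of the groups were separate for each. The joined Zic2 and Zic5 locus (-1.64), Car14 (-1.52), the joined Dnmt3b locus (-1.32), Sox4 (-1.16) and Pou3f1 (-1.12) make up the remaining falls. Other genes used as epiblast markers were not called, among them Etv5 at 72.6 and 86.1 FPKM. The de novo DNA methyltransferase gene Dnmt3a, at 178 [112 to 245] and 138 [89.2 to 186] FPKM, was not called either. The fall of the Dnmt3b locus from 89.5 [68.5 to 110.4] to 35.3 [27.1 to 43.5] stood alone among the methyltransferase loci measured. The cofactor gene Dnmt3l was at 104 and 169 FPKM (0.69), and Dnmt1 had no value in the untreated group.

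Of 24 measured loci of the primitive endoderm, 10 fell and 14 were not called, beside falls at 1.10% of all loci. All 24 had ratios below 0, at a median of -0.90, and with FPKM + 5 the falls numbered 3. Transcription factor genes of the lineage were among the falls. Gata6 was at 10.8 [8.71 to 12.9] and 3.45 [2.72 to 4.19] FPKM (-1.40). Gata4 was at 17.6 [13.1 to 22.1] and 6.62 [4.70 to 8.54] FPKM (-1.29), and Sox17 at 12.6 [9.75 to 15.4] and 5.19 [3.85 to 6.53] (-1.13). Untreated values were higher by more than 2-fold in each. Foxa2 (-1.64), Foxq1 (-1.06) and Sox7 (-1.02) fell too. So did genes of the basement membrane that this lineage secretes. Lama1, a laminin chain, was at 90.2 [72.5 to 108] and 35.9 [28.3 to 43.6] FPKM (-1.31). Col4a2, a type IV collagen chain, was at 77.3 [52.2 to 102] and 32.8 [23.3 to 42.3] FPKM (-1.21). The proteoglycan gene Srgn had the largest fall of the list, from 151 [116 to 187] to 36.6 [27.1 to 46.2] FPKM (-2.01), and the endocytic receptor gene Lrp2 fell by 1.05. The highest uncalled members were Sparc, at 467 and 274 FPKM, and Col4a1, at 237 [132 to 342] and 95.5 [47.1 to 144], whose intervals overlap. In bulk RNA, fewer cells of a type and less RNA per cell cannot be told apart. The fixed markers of the lineage summed to 138 FPKM in untreated and 77.0 in Mll1-deleted cells.

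Products of the visceral endoderm, which takes up and transports nutrients for the embryo, gave 9 falls and 1 rise among 20 loci (median -1.06). Over all loci kept, 1.10% fell and 0.747% rose. Spink1, a trypsin inhibitor gene, was at 29.9 [23.2 to 36.6] and 3.02 [1.65 to 4.39] FPKM (-2.94). Pga5, a pepsinogen gene, was at 58.1 [47.3 to 68.9] and 6.36 [4.97 to 7.75] FPKM (-3.01). Apoa1, the main apolipoprotein of high-density lipoprotein, was at 7.44 [5.73 to 9.15] and 0.200 [0 to 0.409] FPKM (-2.81). Its cluster neighbour Apoa4 on chromosome 9 fell as well, from 1.40 to 0.0507 FPKM. Amot (-1.79), Aqp8 (-1.69), Apob (-1.58), Ctsh (-1.52) and Afp (-1.28) complete the falls. Apolipoproteins did not move together. The locus that joins Apoc2 and Apoc4 was the rise of the list, from 1.06 [0.418 to 1.71] to 3.36 [2.16 to 4.56] FPKM (1.08). Its neighbour Apoc1 on chromosome 7, which is outside the list, rose from 37.3 [29.1 to 45.5] to 82.9 [66.1 to 99.6] (1.13). Apoe, the most highly expressed member, was at 1212 [1008 to 1416] and 1461 [1212 to 1711] and was not called.

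Of the other lineages, trophoblast genes gave 3 rises and no fall among 20 loci (median 0.41), beside 0.747% and 1.10% over all loci. Hand1, a transcription factor gene of trophoblast giant cells and mesoderm, went from 0.392 [0 to 0.923] to 4.83 [2.88 to 6.79] FPKM (2.07), and from 31.2 to 577 estimated counts. The keratin gene Krt7 went from 1.44 [0.901 to 1.98] to 5.00 [3.24 to 6.75] FPKM (1.30), and the X-linked placental homeobox gene Esx1 from 6.77 [4.95 to 8.59] to 15.5 [11.5 to 19.4] (1.09). These levels stayed low beside the pluripotency factors. Eomes was at 6.16 and 4.47 FPKM and was not called. Among 13 primitive streak and mesoderm loci, Lhx1 (-1.25) and Gata4, which both lists hold, fell and none rose. All 12 measured loci of neural and ectoderm regulators were uncalled (median -0.17). They included Pax6 (1.66 and 0.621 FPKM), Zic1, Nes at 2 loci, En2, Sox9, Sox11 (11.6 and 10.8), Msx2, Neurog1, Sox1 and Olig2 (24.9 and 39.5).

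Retinoid genes gave the largest fall of the developmental lists. Cyp26a1, which encodes an enzyme that breaks down retinoic acid, went from 36.4 [27.4 to 45.4] to 2.64 [0.788 to 4.49] FPKM (-3.36). Stra6, the membrane receptor that takes up retinol, went from 2.38 [1.40 to 3.36] to 0.475 [0.177 to 0.772] (-1.20). Tgm2, a transglutaminase gene known to be induced by retinoic acid, moved the other way, from 2.78 [1.04 to 4.51] to 19.7 [8.49 to 31.0] (2.46). The 20 measured loci had a median of -0.19. Crabp1, which binds retinoic acid in the cytoplasm, was at 312 and 201 FPKM, and the receptor gene Rarg at 61.7 and 88.3, and neither was called.

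Interferon-stimulated genes fell in part. Of 33 loci, 8 fell and none rose (median -0.53), beside 1.10% and 0.747% over all loci. Isg15, a ubiquitin-like modifier, was at 10.98 [8.49 to 13.5] and 0.862 [0.400 to 1.32] FPKM (-2.69). Oasl2 was at 5.27 [3.76 to 6.77] and 0.711 [0.326 to 1.10] FPKM (-1.87), and the joined Rtp4 locus was at 5.26 [2.70 to 7.82] and 0.761 [0 to 1.53] (-1.83). Values after deletion were below 1 FPKM in each. The joined Ifit3 and Ifit3b locus (-1.56), near-identical copies whose reads may be split, Usp18 (-1.49), Ifit1 (-1.45), Ifi27 (-1.31) and Ifi44 (-1.06) fell too. The most highly expressed members, Ifitm3 at 263 [215 to 312] and 216 [176 to 256] and the tetherin gene Bst2 at 184 [147 to 220.5] and 209.6 [168 to 252], were not called. The signal transducer gene Stat2, at 12.8 and 16.0 FPKM, was not called. Irgm1, an immunity GTPase gene outside the list, was among the 12 largest falls, from 10.95 [8.80 to 13.1] to 1.24 [0.893 to 1.59] FPKM (-2.41).

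Because several of these genes fell together, the letters of their promoters are shown for those that held the core of the interferon-stimulated response element (ISRE), searched on both strands as GAAA, 2 free bases and GAAA in the 250 bases before the annotated start. Matches are in capitals, and the sequences are from RefSeq on GRCm38.p6, each written on the gene's strand. The windows are chr4:156200819-156201068, strand - for Isg15, chr19:34640639-34640888, strand + for Ifit1 and chr19:34583279-34583528, strand + for Ifit3.
Isg15: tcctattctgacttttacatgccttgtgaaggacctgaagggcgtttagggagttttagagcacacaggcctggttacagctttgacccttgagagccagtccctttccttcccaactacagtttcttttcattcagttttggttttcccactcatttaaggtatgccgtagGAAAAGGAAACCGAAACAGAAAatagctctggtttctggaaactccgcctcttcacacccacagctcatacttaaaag
Ifit1: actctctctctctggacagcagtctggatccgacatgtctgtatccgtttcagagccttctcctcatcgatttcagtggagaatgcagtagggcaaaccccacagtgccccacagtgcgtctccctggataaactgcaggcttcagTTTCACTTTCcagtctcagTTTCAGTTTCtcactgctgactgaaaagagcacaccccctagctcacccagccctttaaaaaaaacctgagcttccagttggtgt
Ifit3: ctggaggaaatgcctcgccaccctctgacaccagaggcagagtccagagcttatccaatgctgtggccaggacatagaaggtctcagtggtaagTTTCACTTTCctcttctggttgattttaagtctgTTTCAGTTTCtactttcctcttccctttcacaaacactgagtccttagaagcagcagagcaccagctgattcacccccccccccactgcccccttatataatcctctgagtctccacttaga
Isg15 holds 3 overlapping matches between 66 and 78 bases before its start, Ifit1 holds 2 at 85 and 104 bases, and Ifit3 holds 2 at 122 and 156 bases. The motif was found in 2.98% of 32851 promoter windows. Among the interferon-stimulated genes 23 had a window in the table, and 9 of those held a match. Of the 8 genes at loci that fell 5 had a window, and 3 of those held a match, with none in the windows of Oasl2 and Ifi44. Matches were also found in genes that were not called, such as Bst2 and Stat2.

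Secreted inflammatory proteins gave 7 falls and no rise among 19 loci (median -0.78), with 18 of 19 below 0. Falls over all loci kept came to 1.10%. Saa3, an acute phase protein gene, was at 47.8 [38.3 to 57.3] and 6.36 [4.52 to 8.19] FPKM (-2.73). Ccl2, which encodes the monocyte attractant MCP-1, was at 89.8 [73.0 to 107] and 25.8 [20.7 to 31.0] FPKM (-1.76). Its neighbour Ccl7, at 54.9 [44.4 to 65.3] and 22.9 [18.3 to 27.5], fell as well. So did Ccl11, a neighbour outside the list, at 47.3 [38.4 to 56.2] and 14.8 [11.8 to 17.8]. These 3 genes lie next to each other at chr11:82028224-82062955. The neutrophil attractants Cxcl5 (-1.79) and Cxcl1 (-1.27) fell, and so did Lcn2 (-1.54) and Serpina3n (-1.06). The adhesion gene Icam1, another target of the same NF-kappaB pathway, was at 28.8 [23.3 to 34.2] and 53.1 [43.1 to 63.0] (0.86), higher with separate intervals and under 2-fold. The inhibitor gene Nfkbia was at 35.1 and 28.5 with overlapping intervals. The Cxcl1 promoter (chr5:90890995-90891244, strand +) is shown since it held a kappaB match, searched on both strands as GGGA, 2 free bases and TTCC, with both overlapping matches in capitals 70 and 71 bases before the start.
Cxcl1: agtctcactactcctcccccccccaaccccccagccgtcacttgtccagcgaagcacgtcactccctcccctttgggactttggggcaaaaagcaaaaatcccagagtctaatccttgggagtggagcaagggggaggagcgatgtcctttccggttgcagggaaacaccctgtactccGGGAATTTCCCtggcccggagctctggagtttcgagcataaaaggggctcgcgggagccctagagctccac
The motif was found in 1.21% of windows, in 6 of the 20 listed genes that had a window, and in 1 of 4 of the called ones.

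Ratios of feeder fibroblast genes lay in the same direction as those of the endoderm, interferon and inflammatory groups. Of 35 collagen and matrix loci, 33 were below 0 (median -0.48), and Col5a2 was the only fall, from 22.1 [14.4 to 29.7] to 10.03 [6.79 to 13.3] FPKM (-1.06). The 11 fixed feeder markers summed to 952 FPKM in untreated and 629 in Mll1-deleted cells, none was at 0, and 10 of the 11 loci kept lay below 0, at a median of -0.55. Col1a1 was at 79.5 [66.9 to 92.1] and 55.3 [39.8 to 70.8] FPKM, and Thy1 at 36.5 and 39.0. The part of the feeders in the falls described above was not tested. In the MM401 and 2i groups the feeder sums were 1316 and 2965 FPKM. The joined Col3a1 locus, whose intervals reach 0 in every group, supplied 547 of the sum in untreated and 351 in Mll1-deleted cells. Without it the sums were 405 FPKM in untreated, 278 in Mll1-deleted, 639.7 in MM401 and 1081 in 2i cells.

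Antigen presentation genes gave no call among 17 loci (median -0.23). B2m, the light chain of class I molecules, was at 105 [75.4 to 134] and 54.0 [34.3 to 73.8] FPKM (-0.94), just under 2-fold with separate intervals, while the heavy chain gene H2-K1 was at 25.7 and 29.8. Outside the list, and named after their values were seen, the class II genes H2-Ab1 (2.75 [2.00 to 3.50] and 8.48 [6.65 to 10.3] FPKM, 1.34) and H2-Oa (0.794 and 2.61 FPKM, 1.01) rose.

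**Figure D3:**
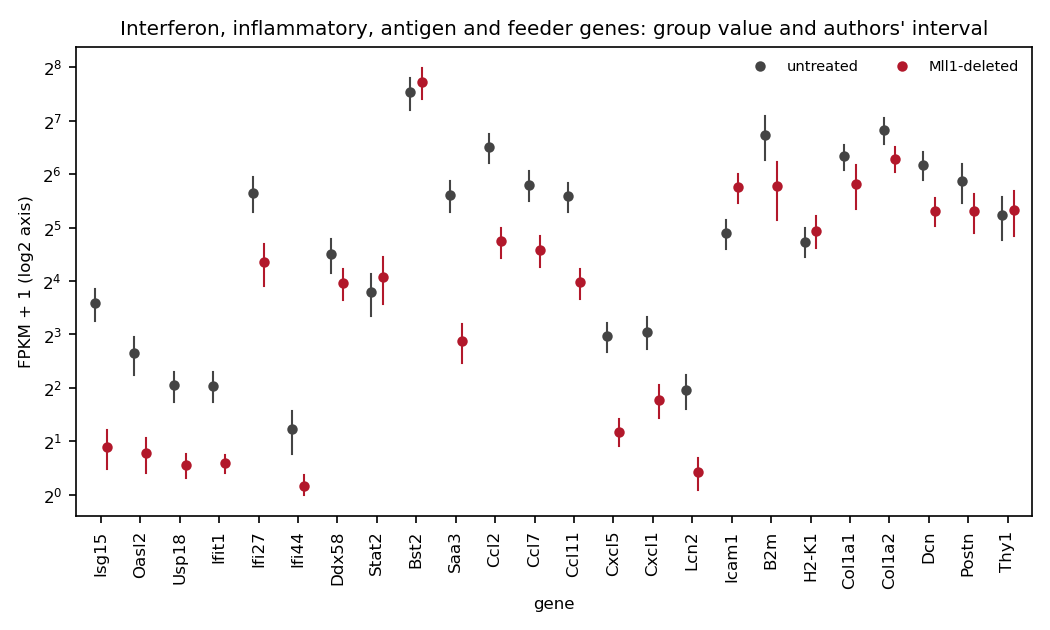
Points are the group FPKM + 1 on a log2 axis and bars the authors' interval, for untreated (grey) and Mll1-deleted cells (red), for interferon, inflammatory, antigen presentation and feeder genes. Isg15 to Ifi44 and Saa3 to Lcn2 stand clear below their untreated values, while Bst2, Stat2, H2-K1 and Thy1 have overlapping bars.

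Among rises, the largest in absolute level was Txnip, which encodes an arrestin-like protein that binds thioredoxin, limits glucose uptake and is induced by glucose through MondoA and ChREBP. It was at 135 [89.5 to 180.0] FPKM in untreated and 506 [366 to 645] in Mll1-deleted cells (1.90, and 1.85 in the counts). Its relative Arrdc4, induced by the same factors, was at 14.8 [11.3 to 18.4] and 32.9 [25.3 to 40.4] (1.10). No other of the 17 loci of this list was called, and the median was 0.33. The glucose transporter genes Slc2a3, at 676 and 915 FPKM, and Slc2a1, at 297 and 286, had overlapping intervals. None of the 24 glycolysis and hypoxia loci was called (median 0.05). The promoter of Txnip (chr3:96557707-96557956, strand +) is shown for the carbohydrate response element (ChoRE), searched on both strands as CACGNG, 5 free bases and CNCGNG, and found once, 85 bases before the start, in capitals.
Txnip: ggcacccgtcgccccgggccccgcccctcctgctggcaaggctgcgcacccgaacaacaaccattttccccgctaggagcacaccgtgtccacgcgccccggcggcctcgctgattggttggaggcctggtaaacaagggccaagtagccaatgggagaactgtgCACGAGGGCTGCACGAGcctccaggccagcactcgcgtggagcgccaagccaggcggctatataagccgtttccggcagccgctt
This motif was found in 0.280% of windows, and within the list in Txnip and Pklr, 2 of 17 genes. The window of Arrdc4 held no match.

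The 12 largest rises at single-name loci of at least 5 FPKM included, after AC027700.2 (0.0337 to 7.45 FPKM) and Tgm2, the testis dipeptidase gene Dpep3, from 1.47 [0.286 to 2.66] to 11.9 [7.85 to 15.9] FPKM (2.38). Ly6k, which encodes a surface protein of male germ cells, went from 3.48 [2.24 to 4.72] to 17.4 [13.5 to 21.2] (2.04). Arl4d, a small GTPase gene, went from 8.92 [7.06 to 10.8] to 34.1 [27.7 to 40.6] (1.82). All of these separated clearly. Slc13a5, a citrate transporter gene (2.39 to 8.84 FPKM), Arc, a synaptic immediate early gene (2.998 to 10.6), Cyp2s1, a cytochrome P450 gene (2.86 to 10.03), Cadm4, an adhesion gene (7.53 to 22.6), Ace, the angiotensin-converting enzyme gene (1.99 to 7.22), and Xlr3a, from a multicopy X-linked family (4.67 to 14.6), followed. Among 29 germline and meiosis loci Dpep3 and Tex101, whose products meet on testicular germ cells, rose and none fell (median 0.18). Tex101 went from 0.463 [0.186 to 0.740] to 3.66 [2.71 to 4.61] FPKM (1.67). Dazl, an RNA-binding germ cell factor, was at 23.3 and 41.9 (0.82), and Sycp1, of the synaptonemal complex, at 12.7 and 6.65 (-0.84). Neither reached 2-fold.

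Genes of the 2-cell-like state, a rare condition in stem cell cultures, had a median ratio of 0.57. Of 18 loci, 3 rose and none fell, beside rises at 0.747% of all loci. The rises were Usp17le, at 3.21 [1.72 to 4.70] and 10.3 [6.85 to 13.7] FPKM, and the loci that hold Tcstv1, at 2.46 and 6.57, and Tcstv3, at 2.51 and 6.44. All belong to families of near-identical copies, so reads may be split between them. Zscan4d, of the family that gives the state its usual marker, was at 1.90 and 2.50 FPKM and was not called.

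Housekeeping and growth lists held few calls, beside a share of 1.84% called in either direction over all loci kept. In lists of this size, no call or a single call is near that share. None was made among 33 cell cycle and replication loci (median 0.08), 27 p53 target loci (0.08), 29 ribosomal protein loci (-0.03), 16 MYC network loci (-0.14), 23 cholesterol and fatty acid synthesis loci (0.24) and 17 stress and immediate early loci (0.20). Of 23 loci of ATF4 targets and the unfolded protein response, Slc7a3, an arginine transporter gene on the X chromosome, fell from 167 [111 to 223] to 81.8 [53.7 to 109.8] FPKM (-1.02). Among 12 loci that respond to tamoxifen or xenobiotics, the joined Ugt1a locus fell (-1.12). The oestrogen targets Greb1 (3.10 and 3.23 FPKM) and Pgr (both under 1 FPKM) were not called, nor were Cyp1b1 (6.72 and 3.50), Esr1, Abcb1a, Abcb1b, Xbp1, Tiparp, Gsta4, Nqo1 and the joined Gstm1 locus. Lists of other tissues gave a call each. Des, the muscle filament gene, rose from 8.87 to 22.97 FPKM among 15 smooth muscle loci, and Cd34 fell from 13.0 to 5.68 among 11 blood and endothelial loci. The other loci of that list, Pecam1 (22.6 and 37.2 FPKM), Laptm5 (119 and 180.2), Cd68, Csf1r, Cdh5, Kdr, Tek, Tie1, the joined lysozyme locus and the joined Itgam locus, were not called.

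**Figure D4:**
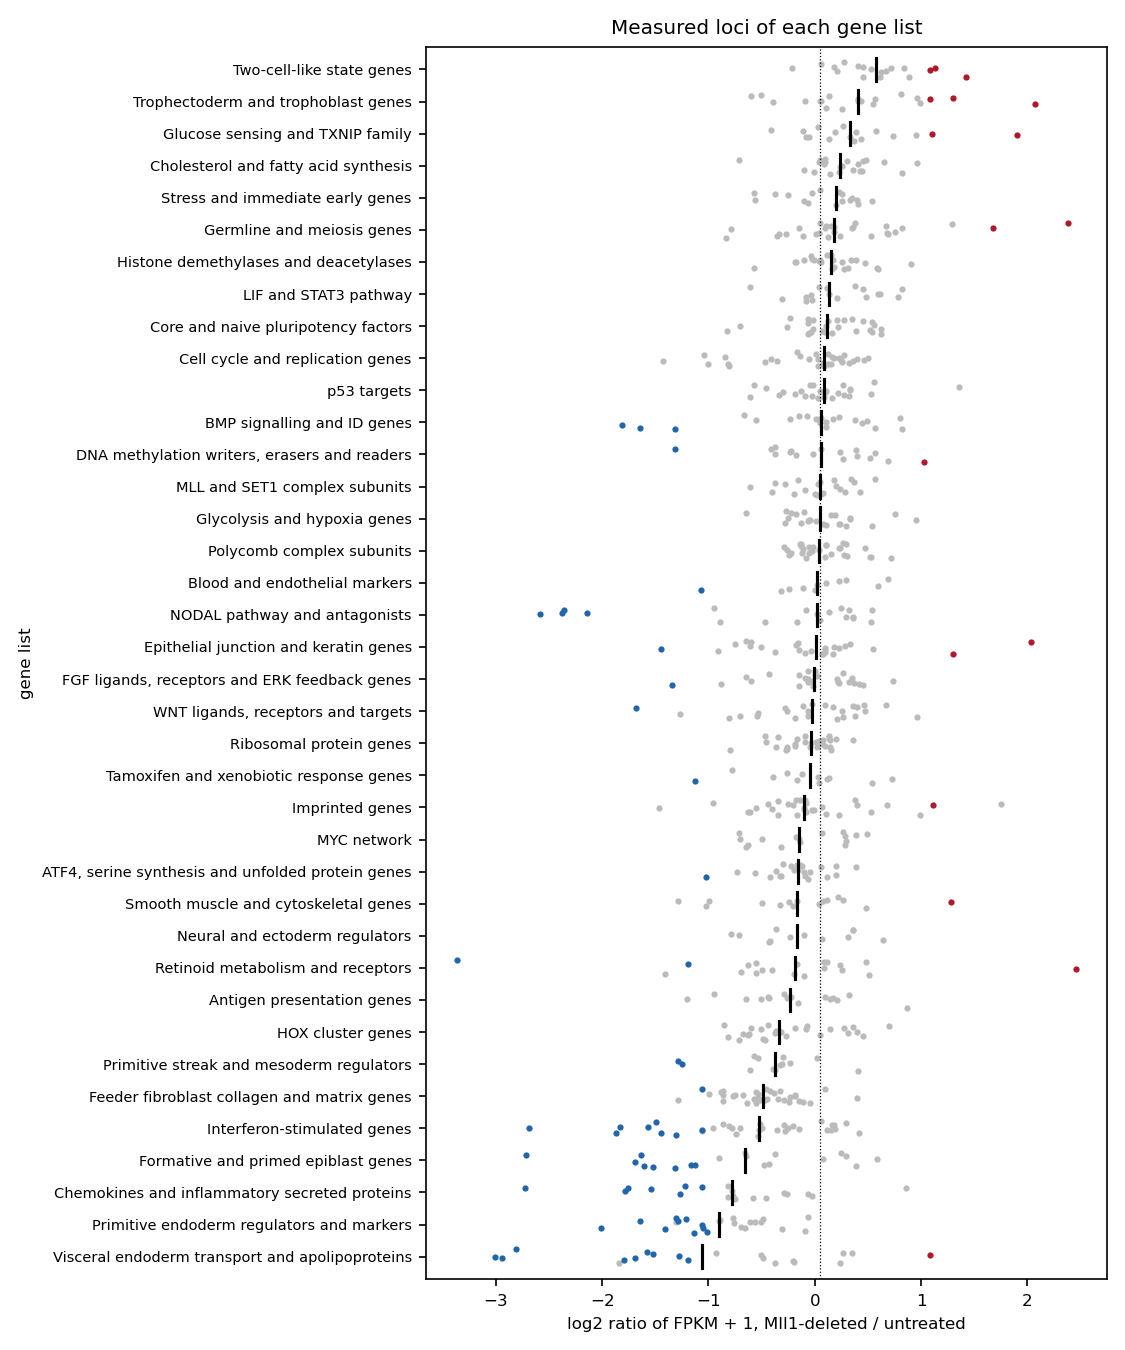
Each point is 1 measured locus of a gene list, with the log2 ratio of FPKM + 1, Mll1-deleted over untreated, on the x axis. The lists were chosen with earlier results of these data known, so their order is a description only. Red points rose, blue points fell, grey points were not called, black ticks are list medians and the dotted line is the median of all loci, 0.05. Of the lists shown, which leave out the clustered predicted genes of chromosome 2 and the known MLL1 targets outside the HOX clusters, visceral endoderm (-1.06), primitive endoderm (-0.90) and inflammatory proteins (-0.78) have the lowest medians, and the 2-cell-like genes the highest (0.57).

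By chromosome, falls were found at 16 of 622 X-linked loci (2.57%) and at 157 of 15166 autosomal loci (1.04%). Rises made up 0.643% of X-linked and 0.745% of autosomal loci. The median ratio was -0.06 on the X and 0.05 on the autosomes. The X-linked falls included Agtr2, an angiotensin receptor gene, from 60.8 [31.4 to 90.1] to 14.6 [6.88 to 22.4] FPKM (-1.98), and Pim2, a survival kinase gene, from 42.4 [33.1 to 51.7] to 13.3 [10.5 to 16.2] (-1.60). The noncoding RNA gene Firre, which helps to position the inactive X, fell from 41.3 [28.0 to 54.6] to 20.0 [13.1 to 26.9] (-1.01). Agtr2, Pim2 and Firre were named after their values were seen. The locus that holds Xist was listed at 33.3 and 16.7 FPKM, with intervals from 0 to 232 and from 0 to 138, too wide to compare.

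**Figure D5:**
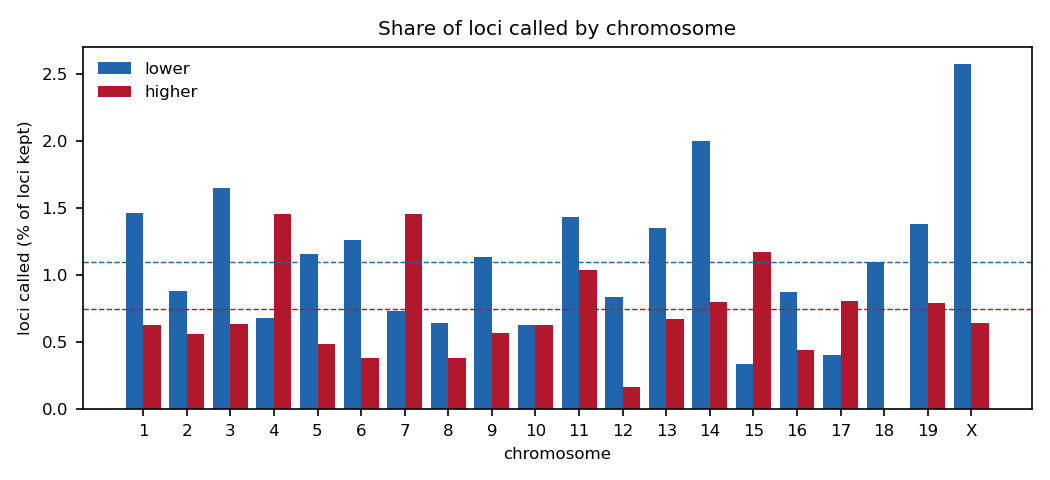
Bars give the percentage of kept loci that fell (blue) or rose (red) on each chromosome, and dashed lines the percentages over all loci, 1.10% and 0.747%. The X chromosome has the tallest blue bar, 16 of 622 loci, and the Y chromosome, with 6 loci, is not drawn.

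Some changes sat side by side. Consecutive loci called in the same direction formed 14 runs of falls with 29 loci and 4 runs of rises with 8 loci. Apart from the runs named above, these included Gkn1 and Gkn2 (chr6:87345650-87379497), which encode gastrokines, Tfpi2 and Gng11 on the same chromosome, Prl2c3 and Prl2c2, which are near-identical, and S100a6 beside the joined S100a4 locus (chr3:90560556-90624433). S100a6, a calcium-binding protein gene, had the highest level of any fall, from 699 [563 to 835] to 318 [256 to 379.8] FPKM (-1.13). The runs of Sox4 with Gm26735 and Pou3f1 with Gm27247 cover shared spans, so their reads may not be separable. A run of rises carries 1 gene name only, 3632451O06Rik, at 2 loci with the same span. The number of runs to expect from the number of calls was not worked out. The predicted genes Gm10800 (61.6 and 4.56 FPKM) and Gm10801 (24.7 and 2.05) lie side by side on chromosome 2. They come from a list of clustered repeat-rich predicted genes, kept as a technical list, and had ratios of -3.49 and -3.07. Among rises, Cdkn1c (8.24 [5.71 to 10.8] and 18.99 [14.4 to 23.6] FPKM) lies beside Slc22a18 (2.96 and 8.09) at chr7:143458339-143499334, in an imprinted cluster. Cdkn1c, a cyclin-dependent kinase inhibitor, was the only call of the 32 loci in the imprinted list (median -0.10). That list does not hold Slc22a18. Phlda2 of that cluster was at 27.3 and 36.4 with overlapping intervals.

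Some joined loci had changes in FPKM that the counts did not share. Of 30 joined loci that were called, 4 had a count ratio of the opposite sign, compared with none of 261 single-name loci. The joined Gm15893 and Mir378b locus had the largest rise of all, from 0.861 [0 to 9.95] to 22.4 [12.2 to 32.5] FPKM (3.65), with a count ratio of -0.46. The joined Sap18 locus fell by 2.07 in FPKM with a count ratio of -0.02. For loci of this kind the choice between FPKM and counts sets the call.

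The MM401 and 2i groups were compared with the same untreated group, so their ratios share its values and are given side by side only. By the same rule 535 loci (3.31% of 16175) rose and 543 (3.36%) fell with MM401, 6.66% in either direction. With 2i, 157 (1.00% of 15676) rose and 180 (1.15%) fell, 2.15% in either direction. Lefty1 was at 9.80 FPKM with MM401 and 14.6 with 2i, beside 14.0 after deletion. Lefty2 was at 2.08, 59.1 and 10.2 FPKM in that order. Isg15 was at 2.27, 22.9 and 0.862 FPKM, and Txnip at 740.1, 150 and 506. By value, Lefty1 and Lefty2 were both lowest with MM401 and highest with 2i, while Isg15 and Txnip each had another order. The intervals of Lefty1 overlap among these groups, and those of Txnip overlap between MM401 and deletion. Other lists gave falls in more than 1 group. Of 19 epiblast loci, 8 fell after deletion, 13 with MM401 and 11 with 2i. Visceral endoderm falls numbered 9 of 20 after deletion, 10 of 19 with MM401 and 7 of 18 with 2i. Of 33 interferon-stimulated loci, 8 fell after deletion and 11 with MM401, whereas with 2i 1 fell and 5 rose. Among primitive endoderm loci 5 of 24 fell with MM401 (median -0.50) and none fell with 2i, where 3 rose (median 0.22). Of 28 pluripotency loci, 11 fell with MM401 (median -0.82), 1 fell with 2i and none fell after deletion. Of 27 p53 target loci, 11 rose with MM401 (median 0.77) and none with 2i or after deletion. These differences between agents were not tested.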

How the data were processed

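RNA libraries came from stem cell cultures grown with feeders, and were made with the Illumina TruSeq protocol, per the labels' protocols. Per the submitters' processing notes, the build was mm10 and the tools included deepTools, SAMtools 1.5 and TopHat2 2.1.1. Neither the role of each tool nor the counting program is stated in the labels or files used here. Deposited FPKM values carry a lower and an upper limit per the file headers, and the deposited estimated counts (expected counts, which need not be whole) carry a variance that was not used. The authors combined the 2 libraries of each group into 1 column, so separate cultures cannot be seen and no SD, n or p-value is given. The authors' intervals are given instead, but they do not replace a measure of spread. Their confidence level, and whether they include spread between the 2 libraries, is not stated in the labels or files used here. Depth per library is unknown.

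Loci were kept if named, with status OK in both groups and at least 100 estimated counts in either. Log2 ratios of FPKM + 1 were computed from the deposited values, and a call needed a 2-fold ratio and separate intervals. Python 3.11.15, pandas 2.3.3, NumPy 2.4.6 and matplotlib 3.10.9 were used. The call rule was run on copies of well-measured untreated values with planted changes and no added noise. That run checks the code only and gives no error rate for real loci. The comparison and its 40 gene lists were chosen with earlier results of these data known. List counts and medians are therefore descriptions and no evidence for a pattern. Named genes were drawn from Kmt2a, the 12 largest rises and falls at single-name loci with an FPKM of at least 5 in either group, up to 8 called members of each list by size of the ratio and its 2 most highly expressed uncalled members, all members of lists with 12 or fewer measured, and called neighbours. Other genes were named after their values were seen. Alternatives changed the pseudocount, table, filters, centring and call rule, and left out joined loci. Coordinates are counted from 1 on mm10. Some genes that the rule covers are not reported here.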

Additional observations from a re-analysis of the deposited data

Results flagged for a closer look

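Loci without a gene name lie outside the comparison of named loci. Of 437 such loci with status OK in both groups and at least 100 estimated counts in either, 4 were higher and 1 was lower by the same 2-fold and interval rule. Over the named loci kept, 0.747% were higher and 1.10% lower, so a few higher loci are about what that share brings. XLOC_050650 was at 2.31 FPKM in untreated and 5.97 in Mll1-deleted cells, and XLOC_041880 at 0.420 and 2.03. XLOC_025791 was at 2.23 and 6.41, and XLOC_025790 at 2.55 and 7.20. These drew attention because a signal above the untreated level appeared in data that the comparison did not use. XLOC_053330, the lower locus, was at 2.15 and 0.456 FPKM. No replicate check exists for any of them.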

How the results depend on the processing

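Counts of calls depended on the settings. The 118 rises became 303 with FPKM + 0.1, 25 with FPKM + 5, 257 with estimated counts + 10, 244 without the count minimum, 244 with an FPKM of at least 1 and 490 at 1.5-fold. The 173 falls became 299, 57, 341, 331, 331 and 429 in that order, so rises outnumbered falls with FPKM + 0.1 and at 1.5-fold. Setting the median ratio to 0 gave 96 rises and 188 falls. With FPKM + 5, falls went from 8 to 5 for epiblast, 10 to 3 for primitive endoderm, 9 to 5 for visceral endoderm, 8 to 2 for interferon-stimulated and 7 to 3 for inflammatory loci, since a larger pseudocount shrinks low values. Interferon falls were 4 with at least 500 counts, and inflammatory falls were 11 at 1.5-fold. Of 291 calls, 265 remained when a 2-fold count ratio was also required, an alternative added after the data were seen. No called locus of the gene lists or of the 12 largest rises and falls changed sign. The median of all loci went from 0.05 to -0.02 with estimated counts, and 29 of 440 list medians, in 14 lists, changed sign, with sizes of at most 0.20 before and 0.19 after. Over the alternatives, 418 list medians moved by at most 0.25 and 22 by more.

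No paired analysis was possible because each table holds 1 column per group. Leaving out a library, the replicate block, edgeR and DESeq2 were not run for the same reason. The authors' intervals limit precision.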
